A study of Mus musculus with 6 samples.

Results

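The enzymes that start, extend and cap mucin-type O-glycans and lacto-series glycans were examined in uteri of Arid1a d/d mice against uteri of Arid1a f/f mice. They were chosen by gene symbol alone, as every gene whose platform annotation gives 1 symbol built from the stem Galnt, B3gnt, B3galt, B4galt, St3gal, St6gal, St6galnac, Fut or Gcnt and a number. This gave 59 of the 16813 genes on the arrays, with 126 of the 41420 probe sets. A gene was represented by its brightest probe set, the one with the highest mean over all arrays, and B3gnt5 by each of its probe sets. By role they were 16 polypeptide GalNAc transferases (Galnt), 4 branching enzymes (Gcnt), 9 beta-1,3-N-acetylglucosaminyltransferases (B3gnt), 10 galactosyltransferases (B3galt and B4galt), 12 sialyltransferases (St3gal, St6gal and St6galnac) and 8 fucosyltransferases (Fut).

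Both genotypes came from intact female mice aged 2 weeks, with 3 arrays of Arid1a d/d uteri and 3 of Arid1a f/f uteri. The ARID1A protein belongs to SWI/SNF, a complex that moves nucleosomes, and by convention d stands for a deleted allele and f for a floxed one. The driver of the deletion, the cells it reaches, and whether an array holds 1 animal or a pool are not given in the sources used here, so each p-value reflects only how these arrays vary, which may be partly technical. The whole uterus was profiled, so fewer cells of a type and less RNA per cell cannot be told apart in any value below. The study's title concerns gland development in the endometrium, and for these enzymes the comparison shows whether their transcripts differed at an age when uterine glands form in the mouse.

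Mucin-type O-glycans begin when a GalNAc transferase places N-acetylgalactosamine on a serine or threonine. Galactosyl- and N-acetylglucosaminyltransferases then build a core and its branches, and sialic acid or fucose usually ends the chain. Lacto-series glycans are built instead on lactosylceramide, a glycolipid, and begin when B3GNT5 adds N-acetylglucosamine to it. Glycans of both kinds coat the luminal surface of the uterus, where mucins carry many of the O-glycans. Several of the enzymes are shared between proteins and lipids.

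Values are log2 RMA intensities, and every difference subtracts the f/f mean, so a negative one means lower in d/d. Calls were made with limma at a Benjamini-Hochberg adjusted p of 0.05 over all genes. The median of all probe sets, 2.69, is used as a landmark for dim signals, because background compresses differences near and below it. By that landmark 41 of the 59 genes had a mean above it in at least 1 genotype and 18 lay below it in both. Arid1a itself stood at 6.98, 7.06 and 7.04 in d/d 1, 2 and 3, against 7.54, 7.58 and 7.71 in f/f 1, 2 and 3 (log2 difference -0.58 ± 0.09 SE; limma adjusted p = 0.0260). The part of the gene that is deleted is not given in the sources used here, so this probe set may not check the genotype. Arrays correlated at 0.987 to 0.995 over all probe sets. Array d/d 1 stood apart from its group: it correlated at 0.995 with f/f 1, and at 0.9901 and 0.9905 with d/d 2 and d/d 3. Results are therefore also given without it where that changes a call. Array d/d 1 was picked from these same values for its likeness to an f/f array, so leaving it out can widen the differences. Calls made only without it are therefore not independent support for a difference.

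The promoter regions of B3gnt5 and St3gal6 are shown first because these genes had 2 of the 3 smallest p-values of the list, both with lower values in d/d uteri. The sequences come from RefSeq on build GRCm38.p6 and run from 250 bases before to 50 bases after an annotated start, 5′ to 3′ on the gene's strand. B3gnt5 has 1 entry, chr16:19759984-19760283 on the plus strand, and St3gal6 has 2 on the minus strand, chr16:58523377-58523676 and chr16:58524204-58524503. Capitals mark the GC box, GGGCGG or CCGCCC, the letters bound by Sp1-type factors.
B3gnt5: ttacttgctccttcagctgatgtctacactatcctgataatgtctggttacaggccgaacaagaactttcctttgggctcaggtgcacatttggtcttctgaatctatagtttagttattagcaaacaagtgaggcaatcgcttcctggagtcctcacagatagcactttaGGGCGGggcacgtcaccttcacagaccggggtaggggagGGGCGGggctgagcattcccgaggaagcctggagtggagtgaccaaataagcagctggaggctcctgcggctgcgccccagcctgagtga
St3gal6 first entry: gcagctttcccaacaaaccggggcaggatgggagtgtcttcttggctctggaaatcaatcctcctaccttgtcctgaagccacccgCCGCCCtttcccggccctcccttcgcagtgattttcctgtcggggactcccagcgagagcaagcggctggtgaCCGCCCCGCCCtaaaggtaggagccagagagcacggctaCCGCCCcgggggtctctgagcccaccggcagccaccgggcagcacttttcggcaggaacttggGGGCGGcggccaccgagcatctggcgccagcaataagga
St3gal6 second entry: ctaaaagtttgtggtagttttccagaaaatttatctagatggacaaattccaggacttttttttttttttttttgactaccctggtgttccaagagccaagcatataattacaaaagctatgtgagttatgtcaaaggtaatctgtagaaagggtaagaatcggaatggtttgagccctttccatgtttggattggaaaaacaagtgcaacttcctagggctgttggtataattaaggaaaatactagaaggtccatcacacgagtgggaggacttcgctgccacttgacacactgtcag
The B3gnt5 window held 2 GC boxes and was 53.3% G or C. The first St3gal6 entry held 5, of which 2 overlap, and was 64.7% G or C, while the second held 0 and was 38.7% G or C. The median over all 32851 promoter entries was 52.7%. A GC box stood in 35.7% of all entries and in 32 of the 60 entries of the 43 members that had one. The AP-1 motif TGANTCA stood in 7.81% of all entries and in 2 of the 60, and TATAAA in 13.6% and in 2 of the 60. Both strands were searched. Neither TGANTCA nor TATAAA was in the 3 windows printed here.

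B3gnt5 was the only gene of the 59 that passed the threshold, and it fell in Arid1a d/d uteri. B3GNT5 is the lactotriaosylceramide synthase, which commits lactosylceramide to the lacto and neolacto series. Its brighter probe set stood at 3.46, 2.84 and 3.12 in d/d 1, 2 and 3, against 4.71, 4.61 and 4.31 in f/f 1, 2 and 3. Every d/d array lay below every f/f array, and every array lay above the landmark of 2.69. The mean was 3.14 ± 0.31 in d/d and 4.55 ± 0.21 in f/f (SD, n = 3 each), a log2 difference of -1.41 ± 0.17 (SE; 95% interval -1.81 to -1.003; limma adjusted p = 0.0155). On the linear scale d/d uteri had 37.7% of the intensity of f/f uteri, 2.65-fold lower. The highest d/d array was d/d 1, the one closest to the f/f arrays over all probe sets. The lowest f/f array, f/f 3, was still above d/d 1 by more than the SD of either genotype.

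The other probe set of B3gnt5 was dim. It stood at 1.57, 1.46 and 1.30 in d/d 1, 2 and 3, against 1.52, 1.79 and 1.69 in f/f 1, 2 and 3, all below the landmark. The genotypes overlapped there, since d/d 1 lay above f/f 1, and the log2 difference was -0.23 ± 0.11 (SE; 95% interval -0.48 to 0.03; limma adjusted p = 0.562 over all probe sets, where the brighter one had 0.0167). The mean of both probe sets gave -0.82 with a limma adjusted p of 0.0204 over genes. With single arrays left out, the log2 difference of the brighter probe set ranged from -1.57 to -1.26, but the limma adjusted p passed 1 of 6 times. It was 0.00248 without d/d 1, 0.0561 without d/d 2, 0.0792 without d/d 3, 0.0602 without f/f 1, 0.0924 without f/f 2 and 0.0517 without f/f 3.

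**Figure D1:**
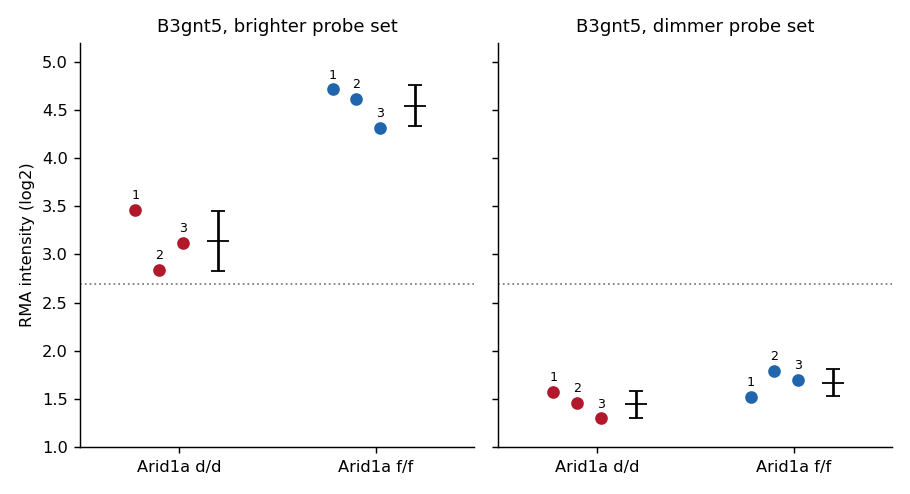
B3gnt5 on both of its probe sets: RMA intensity on the log2 scale (vertical axis) by genotype, with each point 1 array numbered by replicate, the bar and whiskers the mean ± SD, and the dotted line the median of all probe sets (2.69). On the brighter probe set the d/d arrays, at 2.84 to 3.46, lie below the f/f arrays, at 4.31 to 4.71, while on the dimmer one all arrays lie below the dotted line and overlap.

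Of the 59 genes 1 was called, 1.69%, against 1.14% of all genes. In the lower direction 1 of 59 was called, against 0.512% of all genes, and 0 of 59 were called higher in d/d, against 0.63% of all genes. At an unadjusted p under 0.05, limma gave 11 of the 59, with 9 lower and 2 higher in d/d, against 12.2% of all genes, 6.88% lower and 5.29% higher. At an adjusted p under 0.10 they were 3, B3gnt5, B4galt6 and St3gal6, all lower, against 2.4% of all genes, 1.22% lower and 1.18% higher. The median log2 difference was -0.09 over the 59 genes and -0.01 over all genes, with 41 of 59 below 0, against 53.4% of all genes. Among the 41 members above the landmark, 30 were below 0. The genotypes did not overlap for 16 members, 27.1%, of which 13 were lower and 3 higher in d/d, against 16.5% of all genes, 9.42% lower and 7.1% higher. A log2 difference beyond 0.5 in size was seen in 7 members, 11.9%, against 4.84% of all genes, 2.69% lower and 2.15% higher. These were B3gnt5, St6gal2, Galnt15, St3gal6, Gcnt2 and B4galt6 on the lower side and St6galnac5 on the higher side.

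**Figure D2:**
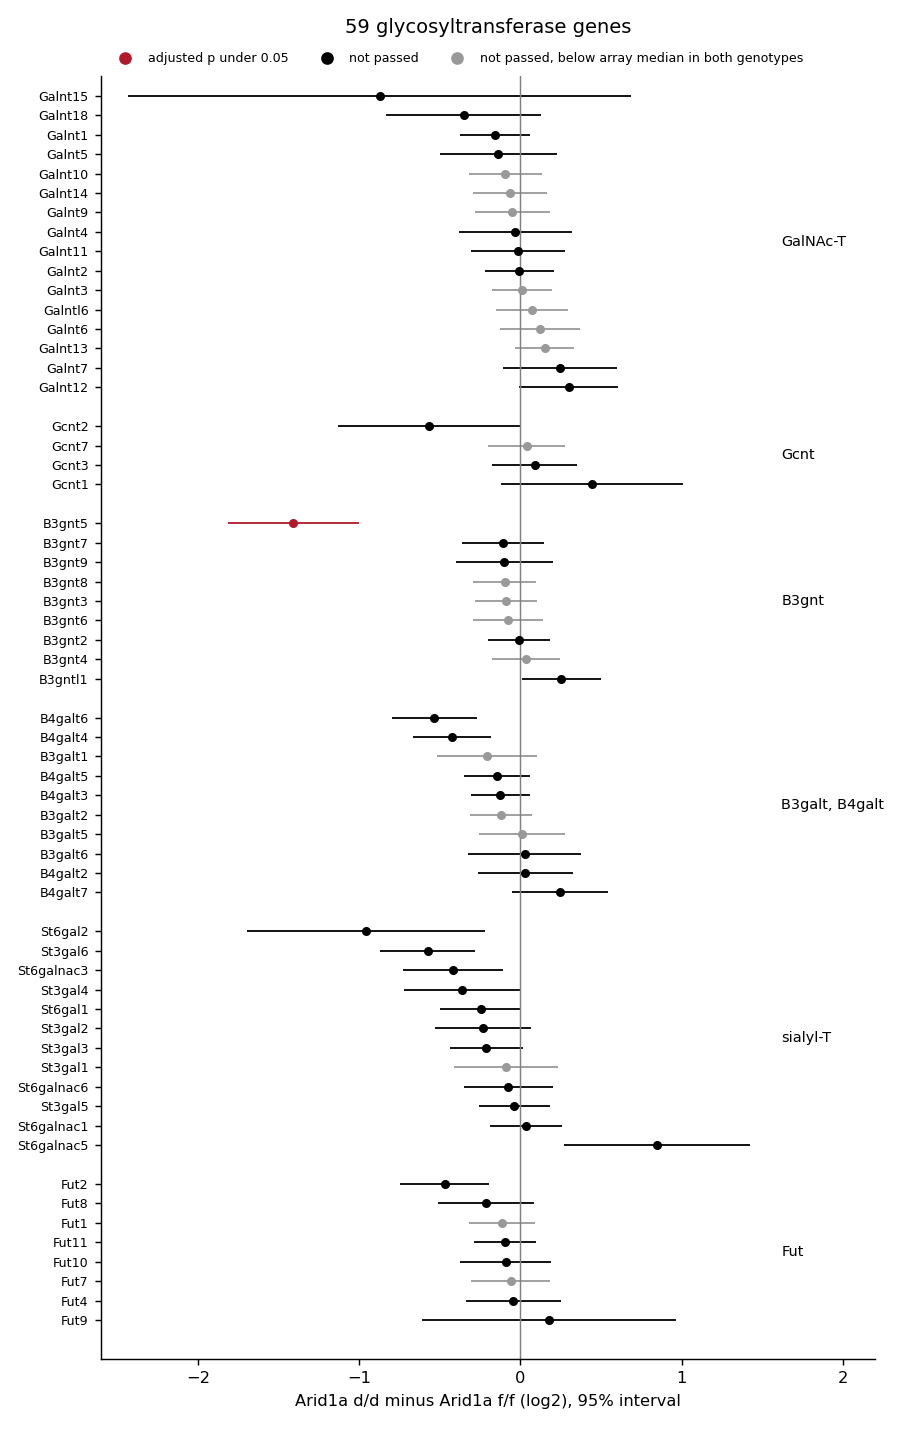
Log2 difference, d/d minus f/f (horizontal axis), for all 59 genes by role, with points the estimates from 3 arrays per genotype and lines the 95% limma intervals. B3gnt5 (red) at -1.41 is the 1 gene past the threshold; black genes did not pass, and grey genes did not pass and lay below 2.69 in both genotypes.

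Of 16 polypeptide GalNAc transferases, which start O-glycans, 0 passed the threshold in limma in either direction, against 1.14% of all genes. With so few genes, 0 calls is near that share. At an unadjusted p under 0.05 there were also 0 of 16, against 12.2% of all genes. The median log2 difference was -0.02 and the range -0.87 to 0.30. By the landmark 9 were above 2.69 and 7 below it in both genotypes. Galnt1 and Galnt2, broadly expressed members of the family, had log2 differences of -0.16 ± 0.09 and -0.01 ± 0.09 (SE). Galnt1 stood at 6.94, 6.72 and 6.92 in d/d 1, 2 and 3, against 7.03, 6.97 and 7.06 in f/f 1, 2 and 3, so its genotypes did not overlap, although the gap was small and its second probe set gave -0.01. Galnt12 and Galnt7 had the largest positive values, 0.30 ± 0.13 and 0.25 ± 0.15 (SE; limma adjusted p of 0.421 and 0.613). Galnt18 stood at -0.35 ± 0.21 (SE). Galnt13, which lay below the landmark at 1.84 in d/d and 1.69 in f/f, was the 1 GalNAc transferase whose d/d arrays all lay above the f/f arrays.

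Galnt15 varied more between arrays of 1 genotype than any other member. It stood at 6.79, 4.25 and 4.54 in d/d 1, 2 and 3, against 6.97, 5.70 and 5.53 in f/f 1, 2 and 3. The arrays numbered 1 were the highest of their genotype, and d/d 1 lay above f/f 2 and f/f 3. Its second probe set had the same order of arrays numbered 1 on top, at 6.60, 4.10 and 4.08 in d/d 1, 2 and 3, against 6.72, 5.56 and 5.06 in f/f 1, 2 and 3. The log2 difference was -0.87 ± 0.67 (SE; limma adjusted p = 0.702), and -1.67 without d/d 1 (limma adjusted p = 0.0453). Galnt18 also passed without d/d 1 alone, at -0.59 (limma adjusted p = 0.0419).

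Of the 4 branching enzymes 0 passed in limma, against 1.14% of all genes. An unadjusted p under 0.05 was seen for 1, Gcnt2, against 12.2% of all genes. Gcnt2, which adds the I branch to poly-N-acetyllactosamine, stood at 7.76, 6.94 and 6.78 in d/d 1, 2 and 3, against 7.88, 7.75 and 7.55 in f/f 1, 2 and 3. The overlap came from d/d 1, which lay above f/f 2 and f/f 3. The log2 difference was -0.57 ± 0.24 (SE; limma adjusted p = 0.408), and -0.87 without d/d 1 (limma adjusted p = 0.00941). Gcnt2 has 8 probe sets, 4 of them above the landmark, and these 4 were all below 0, at -0.57 to -0.17. Gcnt1, the core 2 branching enzyme of leukocytes and many epithelia, had the opposite sign at 0.44 ± 0.24 (SE; limma adjusted p = 0.550), with 7.18, 6.60 and 6.25 in d/d 1, 2 and 3, against 6.57, 6.08 and 6.06 in f/f 1, 2 and 3. Gcnt3, the core 2 and core 4 enzyme of mucin-secreting tissues, gave 0.09 ± 0.11 (SE), with its second probe set above the landmark at -0.10. Gcnt7 lay below the landmark.

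Within its own family B3gnt5 had the largest difference in size, and the other 8 lay between -0.11 and 0.25. Of these 8, 0 passed the threshold in limma, against 1.14% of all genes. An unadjusted p under 0.05 was seen for 1, B3gntl1, against 12.2% of all genes. B3gnt2, the main enzyme of poly-N-acetyllactosamine, stood at 6.83, 6.93 and 6.85 in d/d 1, 2 and 3, against 6.93, 6.90 and 6.82 in f/f 1, 2 and 3. Its 95% interval, -0.20 to 0.18, does not reach the value of B3gnt5. B3gnt7, which acts on keratan sulphate, stood at -0.11 ± 0.11 (SE), and B3gnt9 at -0.10 ± 0.13 (SE). B3gntl1 was the 1 member of the family with d/d arrays above all f/f arrays, at 3.83, 3.73 and 4.01 in d/d 1, 2 and 3, against 3.68, 3.66 and 3.48 in f/f 1, 2 and 3 (log2 difference 0.25 ± 0.11 SE; limma adjusted p = 0.394). B3gnt3, which extends core 1, B3gnt6, the core 3 synthase, B3gnt4 and B3gnt8 lay below the landmark in both genotypes, with differences of -0.10 to 0.04.

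The galactosyltransferases that make lactosylceramide, the acceptor of B3GNT5, are B4GALT5 and B4GALT6. B4galt6 stood at 5.82, 5.76 and 5.60 in d/d 1, 2 and 3, against 6.40, 6.08 and 6.31 in f/f 1, 2 and 3. Its genotypes did not overlap, and the log2 difference of -0.53 ± 0.11 (SE; 95% interval -0.80 to -0.27) had a limma adjusted p of 0.0870, short of the threshold, and it passed at -0.58 without d/d 1 (limma adjusted p = 0.0412). It has 3 probe sets above the landmark, at -0.53, -0.25 and -0.22, and 1 below it at -0.02. B4galt5 stood at 5.71, 5.83 and 5.89 in d/d 1, 2 and 3, against 5.92, 6.02 and 5.93 in f/f 1, 2 and 3, again without overlap, but with a difference of -0.14 ± 0.09 (SE; limma adjusted p = 0.606).

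B4galt4, which galactosylates N-acetylglucosamine, also did not overlap, with 4.40, 4.23 and 4.55 in d/d 1, 2 and 3, against 4.79, 4.87 and 4.80 in f/f 1, 2 and 3 (log2 difference -0.42 ± 0.10 SE; limma adjusted p = 0.124). B4galt3 stood at -0.12 ± 0.08 (SE) without overlap, and B4galt2 at 0.03 ± 0.13 (SE). Counting B4galt3, 4 of the 6 B4galt genes had every d/d array below every f/f array, against 9.42% of all genes. Of the 6, 0 passed in limma, against 1.14% of all genes. An unadjusted p under 0.05 was seen for 2 (B4galt6 and B4galt4), against 12.2% of all genes. B4galt7 and B3galt6, which build the linker of glycosaminoglycans, gave 0.25 ± 0.13 and 0.03 ± 0.15 (SE). B3galt1, B3galt2 and B3galt5, the last of which makes type 1 chains, lay below the landmark in both genotypes, with B3galt2 lower in d/d without overlap at -0.12.

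Of the 12 sialyltransferases 0 passed in limma, against 1.14% of all genes. An unadjusted p under 0.05 was seen for 5, 4 lower and 1 higher in d/d. Over all genes 12.2% had such a p, 6.88% lower and 5.29% higher. Differences below 0 were seen in 10 of the 12, against 53.4% of all genes, and the median was -0.22. St3gal6, which sialylates N-acetyllactosamine, stood at 5.81, 5.52 and 5.49 in d/d 1, 2 and 3, against 6.21, 6.33 and 5.997 in f/f 1, 2 and 3. The genotypes did not overlap, and the log2 difference was -0.57 ± 0.13 (SE; 95% interval -0.87 to -0.28; limma adjusted p = 0.0957), and -0.68 without d/d 1 (limma adjusted p = 0.0213). With the replicate number as a block its limma adjusted p was 0.0493, in a fit where 2.72% of all genes passed. The replicate numbers were not taken as pairs here, so a pass in that fit is not added support. The 3 probe sets of St3gal6 above the landmark gave -0.57, -0.42 and -0.08, and the mean of all 5 gave -0.20. The one at -0.08 has the suffix _x_at of probes that can match other transcripts. St6gal2, an alpha-2,6-sialyltransferase of N-acetyllactosamine, stood at 3.15, 2.34 and 2.26 in d/d 1, 2 and 3, against 4.07, 3.57 and 2.97 in f/f 1, 2 and 3. Array d/d 1 lay above f/f 3, d/d 2 and d/d 3 lay below the landmark, and the difference was -0.96 ± 0.32 (SE; limma adjusted p = 0.265). Without d/d 1 it was -1.24 (limma adjusted p = 0.0396), and with the replicate number as a block the adjusted p was 0.0150.

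All 6 St3gal genes had differences below 0, from -0.57 to -0.04, against 53.4% of all genes below 0. St3gal3 stood at -0.21 ± 0.10 and St3gal4 at -0.36 ± 0.15 (SE), enzymes that also act on N-acetyllactosamine. St3gal2, which sialylates core 1 and gangliosides, gave -0.23 ± 0.13 (SE), and St3gal5, the GM3 synthase that competes for lactosylceramide, gave -0.04 ± 0.10 (SE; 95% interval -0.26 to 0.19). St3gal1 lay below the landmark. St6gal1, the widely expressed alpha-2,6-sialyltransferase, stood at 6.12, 6.23 and 6.24 in d/d 1, 2 and 3, against 6.47, 6.26 and 6.61 in f/f 1, 2 and 3, with a difference of -0.25 ± 0.11 (SE; limma adjusted p = 0.425). St3gal3, St6gal1 and St6galnac3, the last at -0.42 ± 0.13 (SE; limma adjusted p = 0.249), each had every d/d array below every f/f array. The same held for 9.42% of all genes.

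St6galnac5 went the other way, with the highest positive difference of the 59. It encodes a sialyltransferase of gangliosides, known mainly from brain. Its brightest probe set stood at 4.65, 5.21 and 4.83 in d/d 1, 2 and 3, against 3.50, 4.21 and 4.44 in f/f 1, 2 and 3. The d/d arrays lay above the f/f arrays, with f/f 1 the lowest of all. The log2 difference was 0.85 ± 0.25 (SE; 95% interval 0.27 to 1.42; limma adjusted p = 0.201), so it did not pass. With the replicate number as a block it passed (limma adjusted p = 0.0428), but so did 2.72% of all genes. The replicate numbers were not taken as pairs here. A second probe set stood at 3.73, 4.11 and 3.83 in d/d 1, 2 and 3, against 2.18, 3.23 and 3.26 in f/f 1, 2 and 3, a difference of 1.00 ± 0.27 (SE; limma adjusted p = 0.217 over all probe sets), and the third, dim one gave 0.25. Without f/f 1 the difference of the brightest was 0.57. St6galnac1 and St6galnac6 gave 0.03 ± 0.10 and -0.08 ± 0.12 (SE).

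**Figure D3:**
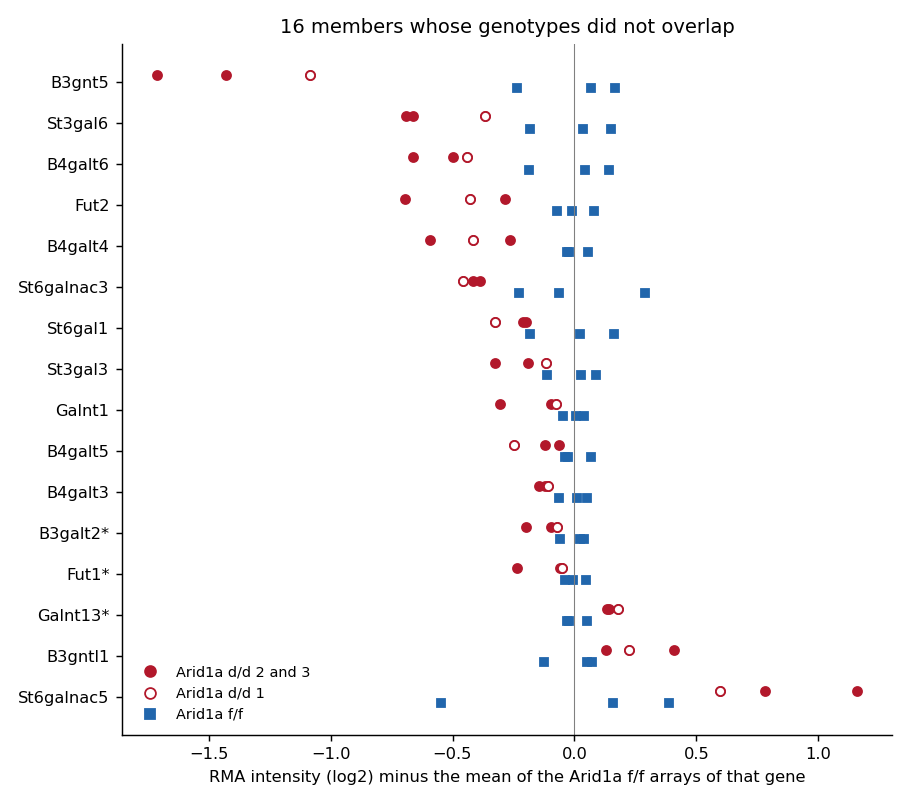
RMA intensity (log2) of each array minus the mean of the f/f arrays of that gene (horizontal axis), for the 16 members whose genotypes did not overlap. Circles are d/d arrays, with d/d 1 open, squares are f/f arrays, and an asterisk marks a gene below 2.69 in both genotypes; 13 genes lie to the left and 3 to the right, and the gap is widest for B3gnt5.

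The 8 fucosyltransferases held 0 calls in limma, against 1.14% of all genes, with a median difference of -0.09. An unadjusted p under 0.05 was seen for 1, Fut2, against 12.2% of all genes. Fut2, which makes the H antigen of secretory epithelia, stood at 2.97, 3.11 and 2.70 in d/d 1, 2 and 3, against 3.39, 3.32 and 3.47 in f/f 1, 2 and 3. Its genotypes did not overlap, with a log2 difference of -0.47 ± 0.12 (SE; 95% interval -0.75 to -0.19; limma adjusted p = 0.138), and d/d 3 lay close to the landmark. A second probe set of Fut2, below the landmark in both genotypes, overlapped and gave -0.004. Fut1, the other H enzyme, lay below the landmark at 1.91 in d/d and 2.02 in f/f. Fut8, which adds core fucose to N-glycans, stood at -0.21 ± 0.13 (SE), and Fut4, Fut10 and Fut11 at -0.10 to -0.04. Fut9, which makes Lewis x, ranged widely, at 5.35, 4.40 and 3.81 in d/d 1, 2 and 3, against 4.51, 4.19 and 4.32 in f/f 1, 2 and 3. Its d/d arrays lay on both sides of the f/f arrays (log2 difference 0.18 ± 0.34 SE), and without d/d 1 the difference was -0.24. Fut7, the leukocyte enzyme of sialyl Lewis x, had means below the landmark.

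Across the list, 37 genes had more than 1 probe set and 17 of these had at least 2 above the landmark. In 13 of the 17 the probe sets above the landmark had 1 sign, lower in 10 and higher in 3, and in 4 (Fut10, Galnt2, Gcnt3 and St3gal5) they had both. The differences within a gene spread most for St3gal6, by 0.49, and Gcnt2, by 0.40. The dim probe sets of B3gnt5 and B4galt6, below the landmark in both genotypes, gave -0.23 and -0.02, smaller in size than their brightest ones. Dim probe sets were also smaller in size for Fut2 (-0.004), St3gal3 (-0.03), St6gal1 (-0.04) and St6galnac3 (-0.10 and -0.05). Gcnt1 and Galnt13 each had a dim probe set at -0.04, opposite in sign to the brightest one. Of the 126 probe sets 1 was called over all probe sets, against 0.524% of all probe sets.

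**Figure D4:**
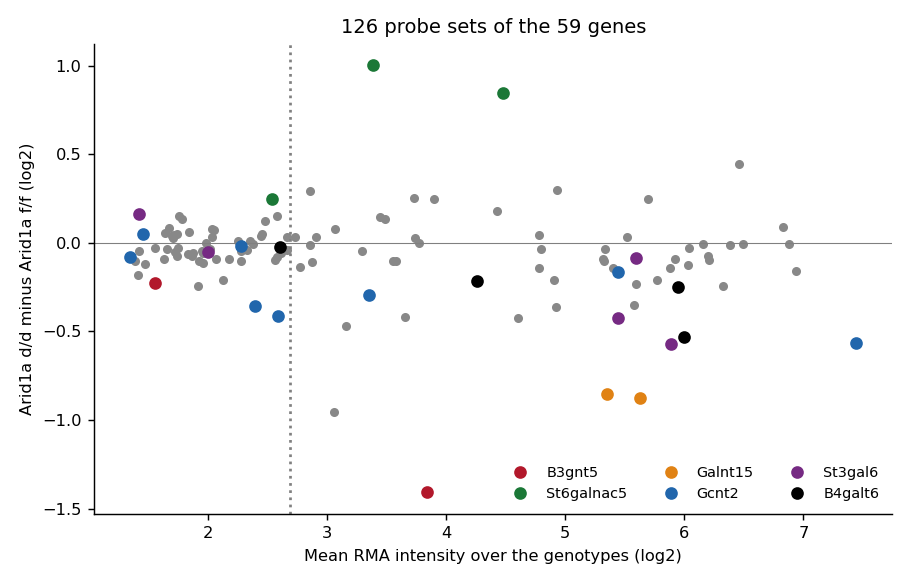
Log2 difference, d/d minus f/f (vertical axis), against mean RMA intensity over the genotypes on the log2 scale (horizontal axis) for the 126 probe sets of the 59 genes, with 6 genes coloured and the dotted line at 2.69. The 2 probe sets of B3gnt5 lie on either side of the line, at -1.41 and -0.23, and those of Galnt15 lie together at -0.87 and -0.85.

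The number of members that passed changed with every array left out, and most without d/d 1. Without d/d 1, 7 of the 59 were called, all lower in d/d: B3gnt5 at -1.57, Gcnt2 at -0.87, St3gal6 at -0.68, St6gal2 at -1.24, B4galt6 at -0.58, Galnt18 at -0.59 and Galnt15 at -1.67, with limma adjusted p from 0.00248 to 0.0453. Without d/d 1 the share of all genes that passed was 4.88%. Without both arrays numbered 1 the members called were 3, B3gnt5, Galnt15 and Gcnt2, against 3.21% of all genes. Without any 1 of the other 5 arrays 0 members were called, against 0.494%, 0.155% and 0.208% of all genes without f/f 1, 2 and 3 and 0.214% and 0.196% without d/d 2 and 3. The replicate block gave 4 members, against 2.72% of all genes, and array weights 3, against 2.27%. In 6 further settings B3gnt5 alone passed. All genes passed there at 1.35% with trend and robust variance, 1.25% with repeated quantile normalization, 1.1% with median centring, 1.51% without dim probe sets, 1.15% without _x_at probe sets and 1.06% when probe sets were averaged by gene.

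**Figure D5:**
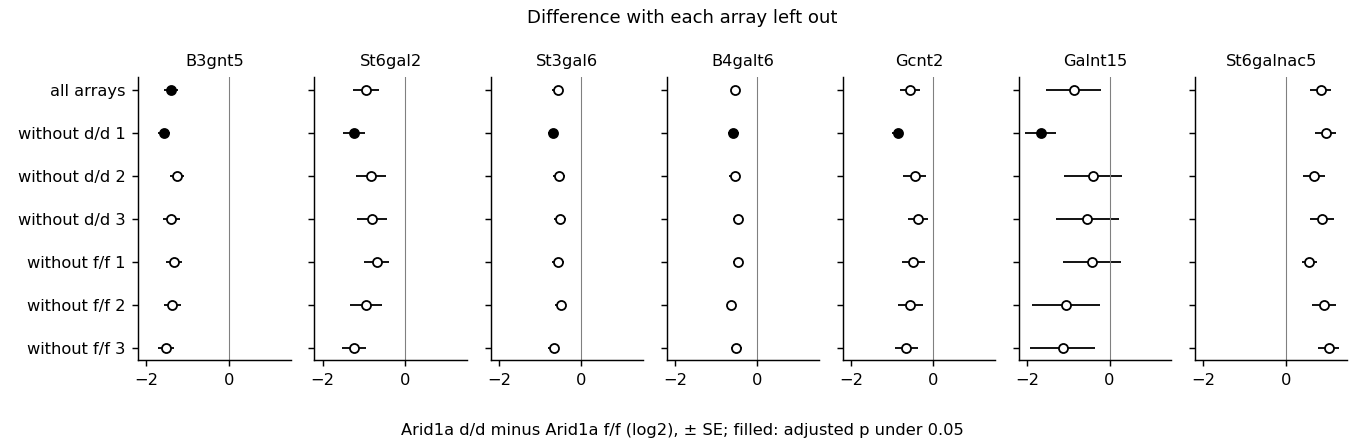
Log2 difference, d/d minus f/f (horizontal axis, ± SE), for 7 members with all arrays and with each array left out (rows); filled points passed a limma adjusted p of 0.05. B3gnt5 keeps a value of -1.57 to -1.26 in every row and passes with all arrays and without d/d 1, and 5 further members pass without d/d 1.

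The neighbouring genes of these pathways gave few calls. C1galt1, the core 1 synthase, stood at 5.54, 5.43 and 4.98 in d/d 1, 2 and 3, against 6.09, 5.55 and 5.70 in f/f 1, 2 and 3 (log2 difference -0.46 ± 0.18 SE; limma adjusted p = 0.374), and C1galt1c1, its chaperone, lay below the landmark. Of 9 measured glycolipid genes outside the list 0 passed in limma, against 1.14% of all genes, and 5 lay below the landmark. An unadjusted p under 0.05 was seen for 1 (A4galt), against 12.2% of all genes. A4galt, the globo-series synthase, which also acts on lactosylceramide, had the smallest p, with 5.54, 5.08 and 4.97 in d/d 1, 2 and 3, against 5.86, 5.95 and 5.84 in f/f 1, 2 and 3 (log2 difference -0.69 ± 0.15 SE; limma adjusted p = 0.0914). B4galnt1, a ganglioside synthase, followed at 0.16 ± 0.10 (SE), below the landmark.

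Of 15 genes that make or carry nucleotide sugars 0 passed in limma and 1 had an unadjusted p under 0.05, with a median of 0.10. Over all genes 1.14% passed, and 12.2% had an unadjusted p under 0.05, 6.88% lower and 5.29% higher in d/d. Pgm3, of the pathway to UDP-N-acetylglucosamine, had a log2 difference of 0.36 ± 0.09 and Ugp2, which makes UDP-glucose, of -0.29 ± 0.16 (SE; limma adjusted p of 0.119 and 0.557). Of 11 sulphotransferases and other capping enzymes 0 passed and 3 had an unadjusted p under 0.05, 2 lower and 1 higher, with Chst1, which sulphates keratan chains, at -0.71 ± 0.13 and Chst2, an N-acetylglucosamine sulphotransferase, at -0.49 ± 0.17 (SE; limma adjusted p of 0.0578 and 0.280). Among 12 mucins and mucin-like carriers 1 rose, Muc1, with 5.40, 5.85 and 5.87 in d/d 1, 2 and 3, against 4.67, 4.69 and 4.68 in f/f 1, 2 and 3 (log2 difference 1.03 ± 0.13 SE; limma adjusted p = 0.0178). Over all genes 0.63% were called higher in d/d. Of these 12, 9 had differences below 0, against 53.4% of all genes. However, 6 of the 12 (Glycam1, Muc4, Muc13, Muc15, Muc16 and Muc5b) lay below the landmark in both genotypes, at -0.22 to 0.07. At an unadjusted p under 0.05 there were 4 lower and 1 higher. The 4 were Emcn at -0.67, Podxl at -0.53, Muc20 at -0.34 and Selplg at -0.26, with limma adjusted p from 0.0603 to 0.395. Emcn is also among the endothelial genes below, so it is counted in both lists.

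Markers of several cell types also had different mean levels in the genotypes. Over all genes 1.14% passed the threshold in limma, 0.512% lower and 0.63% higher in d/d. For the counts below, 12.2% of all genes had an unadjusted p under 0.05 in limma, 6.88% lower and 5.29% higher in d/d. The mean log2 level of 9 measured glandular genes was 3.24 to 3.32 in d/d, against 3.83 to 3.97 in f/f; 2 of the 9 fell, Foxa2, a transcription factor of uterine glands, at -1.41, and Cxcl15, a chemokine, at -3.71 (log2 differences; limma adjusted p of 0.0116 and 0.00538). The other 7 lay between -0.27 and 0.14: Sox17, the brightest of the list, at 0.14, Prss29 at 0.08 and Ttr at -0.14 did not pass, and Lif, Prss28, Slc18a2 and Wfdc3 lay below the landmark. That of 10 simple epithelium genes was 7.65 to 7.99 in d/d, against 7.58 to 7.79 in f/f, with 1 risen, Cdh1, the epithelial cadherin, at 1.0 (log2 difference; limma adjusted p = 0.0314). At an unadjusted p under 0.05 there were 4 epithelial genes higher in d/d (Cdh1, Krt8, Krt18 and Cldn7) and 0 lower, while Calb1 at -1.21, Ehf at -0.53, Prom1 at -0.22 and Cldn3 at -0.18 had the opposite sign. For 6 endothelial genes it was 6.03 to 6.52 in d/d, against 6.74 to 6.86 in f/f, and for 7 fat genes 4.22 to 5.0 in d/d, against 5.23 to 5.91 in f/f, with 0 past the threshold in limma in either list but 5 and 6 lower at an unadjusted p under 0.05. For 11 stromal genes it was 9.35 to 9.56 in d/d, against 9.69 to 9.88 in f/f, with 1 fallen, Thy1, at -1.06 (log2 difference; limma adjusted p = 0.0155). At an unadjusted p under 0.05 the stromal list had 5 lower and 1 higher, Vcan, whose d/d arrays lay above its f/f arrays at 0.69 ± 0.20 (SE; limma adjusted p = 0.195). For 5 lymphocyte genes it was 2.64 to 2.74 in d/d, against 2.83 to 2.85 in f/f. These levels are close to the landmark of 2.69, and the median difference was -0.08. The mean of 9 cell cycle genes split the arrays within genotypes, at 5.16, 6.94 and 6.70 in d/d 1, 2 and 3, against 5.52, 5.66 and 6.51 in f/f 1, 2 and 3. All 7 smooth muscle genes had differences below 0, at -0.46 to -0.08, against 53.4% of all genes below 0. The lists of smooth muscle (7 genes), macrophages and granulocytes (8) and ovary, oviduct and mesothelium (10) overlapped between genotypes. These and the lymphocyte and cell cycle lists held 0 calls in limma, with 6 genes of the 5 lists at an unadjusted p under 0.05. The part of these markers in the values of B3gnt5 and the other enzymes was not tested.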

How the data were processed

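RNA of Arid1a d/d and Arid1a f/f uteri (3 arrays each) was labelled with biotin from 500 ng of total RNA, per the labels' protocols. The deposited values are intensity values on a linear scale, 1 per probe set and array, and RMA is named in the submitters' processing notes without version or settings. Scanner files, detection calls and scan dates were not used here. Log2 was taken with no added constant; the design had assumed log2 values. Probe sets were named from the platform annotation (31562 with 1 symbol, 830 with several, 9028 with none).

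Each gene was fitted by genotype (lmFit, then eBayes without trend or robust estimation, 2-sided, limma 3.58.1 under R 4.3.3, 4 residual and 3.66 prior degrees of freedom over genes) and adjusted over all 16813 genes or 41420 probe sets. With 3 arrays a genotype, precision is low. The fit was tested on simulated data. The members, lists and named genes were chosen with earlier results of these data known, so no p adjusted over the list is given. Named are members past the threshold, members whose genotypes did not overlap, the 2 largest differences each way per role above the landmark, and, of each neighbouring list, genes past the threshold or the 2 of smallest p. Galnt2, B3gnt9 and others named beside them were added after their values were seen. Alternatives were a replicate block, trend and robust variance, array weights, repeated quantile normalization, median centring, filters on dim (under the 40th percentile) and _x_at probe sets, arrays left out, other thresholds, mean probe sets and all probe sets.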

Additional observations from a re-analysis of the deposited data

How the results depend on the processing

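With arrays left out in turn, the members called ranged from 0 to 7, those lower in d/d from 0 to 7, and the log2 difference of the brighter B3gnt5 probe set from -1.57 to -1.26. As the genotypes did not overlap for B3gnt5, its direction could not turn in those fits. The replicate numbers were treated as names and not as pairs, since arrays 1, 2 and 3 of the genotypes deviated together with correlations of 0.461, 0.0228 and 0.178, and not every array correlated best with its own number. With the replicate block 4 members passed, 3 lower (B3gnt5, St6gal2, St3gal6) and 1 higher (St6galnac5), and 457 of all genes, against 192 without it. Array weights gave 3, all 3 lower (B3gnt5, St3gal6, B4galt6). Leaving out both arrays numbered 1 gave 3, all 3 lower. An adjusted p under 0.10 gave 3, all 3 lower, against 2.4% of all genes. An unadjusted p under 0.05 gave 11, 9 lower and 2 higher, against 12.2% of all genes. Both follow from the looser threshold; for the others the cause was not tested. With trend and robust variance, quantile normalization, median centring, either filter or the mean of probe sets, B3gnt5 alone passed.

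Signs turned only for named members that passed in no setting. With single arrays left out, B4galt2 ranged from -0.047 to 0.16, St6galnac1 from -0.014 to 0.10 and Fut9 from -0.24 to 0.53. Fut9 was at -0.011 with array weights and -0.15 without both arrays numbered 1. The mean of all probe sets gave Gcnt3 -0.039 and St6galnac1 -0.00043. Scaling moved the median of all probe sets by under 0.1. What the signal over background limits is the 18 members below the landmark, where a difference may not be detectable.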

Other observations

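Galnt9 had 1 value, 1.93, on all 3 d/d arrays, against 1.89, 2.16 and 1.88 on f/f 1, 2 and 3, below the landmark on every array. This was not particular to Galnt9, since a dim probe set of Galnt4 also had 1 value, 2.08, on all 3 d/d arrays.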
